A study of Mus musculus with 21 samples.

Results

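Schwann cell myelin and glial identity genes, *Pmp22*, *Mbp*, *Mag*, *Prx*, *Egr2*, *Gjc3*, *Foxd3* and *Fabp7*, were followed library by library in RNA-seq of cells from the mouse inner ear. They were chosen by name and are 8 of the 52550 genes in the count table. Each matched 1 Ensembl identifier.

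Spiral ganglion neurons (SGNs) carry sound signals from hair cells (HCs) to the brain, and in mice their axons and most of their cell bodies become wrapped by Schwann cells and satellite glia. The transcription factor EGR2, acting with SOX10, switches on the myelin programme in Schwann cells. Compact myelin is held together by proteins such as PMP22 and MBP, whereas MAG lies next to the axon and periaxin and connexins sit in the cytoplasm-rich parts of the sheath. FOXD3 belongs to the neural crest and early glial lineage, and FABP7 is a fatty acid carrier of immature glia.

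The study collected labelled cells of C57BL/6 mice in 7 groups of 3 libraries. SGNs were manually picked tdTomato+ cells from mice with ShhCre/+ and the reporter allele Rosa26-CAG-loxp-stop-loxp-tdTomato/+, sampled in the embryo (E15.5), shortly after birth (P1), before hearing (P8), around its onset (P14) and in the young mouse (P30), with 69 to 195 cells a library. HCs came at P12 from Atoh1-CreER+ mice with the same reporter, given tamoxifen at P0 and P1, with about 1200 cells a library from the cochlea and the vestibular organs. Glia came at P8 from vGlut3-iCreER/+ mice with that reporter, given tamoxifen at P2 and P3, with 86 to 125 manually picked cells a library taken from the dissected SGN region so that inner HCs were left behind. All groups thus carried a Cre allele and the tdTomato reporter, and no library came from mice without them. By the study's methods, SGN samples had been screened by PCR for low *Sox10*, a glial gene, before sequencing, so the SGN libraries were selected against glial RNA. The labels do not say that replicates came from separate animals, so the p-values measure only the spread between these libraries, which may be technical.

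Libraries held between 10368240 and 37287489 counts, with a median of 20384100, and 3 counts were worth 0.0805 to 0.289 CPM, the counts scaled to the size of each library. Levels are given in TPM, which divide by the deposited length of each gene, so comparisons between genes depend on those lengths. The neuronal marker list summed to between 1196 and 10988 TPM in SGN libraries and to between 44.2 and 431 TPM in glial libraries, where the highest value was that of replicate 1. For runs that left libraries out, 5 were taken as standing apart by genes of other cells or by their level within a group. E15.5 SGN replicate 1 had a blood list sum of 178 TPM against 0 in the other E15.5 libraries. P14 SGN replicate 1 had an oligodendrocyte list sum of 30.3 TPM, P1 SGN replicate 1 had an endothelial sum of 73.4 TPM, HC replicate 1 had the highest HC level of each of the 8 genes, and glial replicate 1 had the highest neuronal sum of its group. P8 SGN replicate 1 was not among them. Its fibroblast, blood and endothelial sums of 153, 29.7 and 10.9 TPM were the highest of the P8 SGN libraries. P30 SGN replicate 1, with a fibroblast sum of 22.1 TPM, was not among them either. Without all 5 libraries taken as standing apart, the counts of genes that passed from E15.5 to P1, from P8 to P14 and from E15.5 to P30 changed by over 1.5 times, from 0, 1 and 1 to 1, 0 and 2.

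All 8 genes were highest in the glial libraries. *Pmp22*, a tetraspan protein of compact myelin, was the most abundant, at 1243, 1910 and 1681 TPM in glial replicates 1 to 3. *Mbp*, the basic protein that joins the cytoplasmic faces of compact myelin, was at 317, 418 and 213 TPM. *Prx*, which encodes the Schwann cell scaffold periaxin, was at 162, 140 and 109 TPM. For each of these 3 genes the lowest glial library stood above the highest of all other libraries. *Egr2*, the transcription factor of the myelinating state, was at 475, 409 and 300 TPM. *Gjc3*, which encodes the glial connexin 29, was at 466, 542 and 467 TPM. *Fabp7* was at 499, 603 and 254 TPM. *Gjc3* was the steadiest of the 8 in glia and *Fabp7* spread over a wider range. *Foxd3* was at 84.1, 102 and 73.5 TPM. *Mag*, the glycoprotein of the membrane facing the axon, was the lowest and most uneven, at 39.0, 7.29 and 20.6 TPM. In glia, the order of mean TPM was *Pmp22*, *Gjc3*, *Fabp7*, *Egr2*, *Mbp*, *Prx*, *Foxd3* and *Mag*. The libraries of *Pmp22* lay above all those of *Gjc3*, and *Mbp*, *Prx*, *Foxd3* and *Mag* were separate from one another, but neighbours from *Gjc3* to *Mbp* in that order overlapped. Places in the order depend on the deposited lengths, which for *Mbp* was 8403 bases. Without division by length, *Mbp* was at 2184, 3020 and 1629 CPM in glial replicates 1 to 3. In the same libraries *Gjc3* was at 1665, 2029 and 1850 CPM and *Fabp7* at 511, 648 and 288 CPM.

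The same glial libraries held genes of dividing cells (*Mki67*, *Top2a*, *Ccnb1* and *Cdk1*), which summed to 201, 69.1 and 35.2 TPM in replicates 1 to 3 and to between 0.254 and 31.1 TPM in SGN libraries. *Pou3f1*, a regulator of the step before myelination, was at 35.99, 25.7 and 17.4 TPM in glia. The oligodendrocyte genes *Olig1*, *Olig2* and *Mog* were at 0 in all 3 glial libraries, and the 7 genes of that list summed to between 2.29 and 10.6 TPM there.

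**Figure D1:**
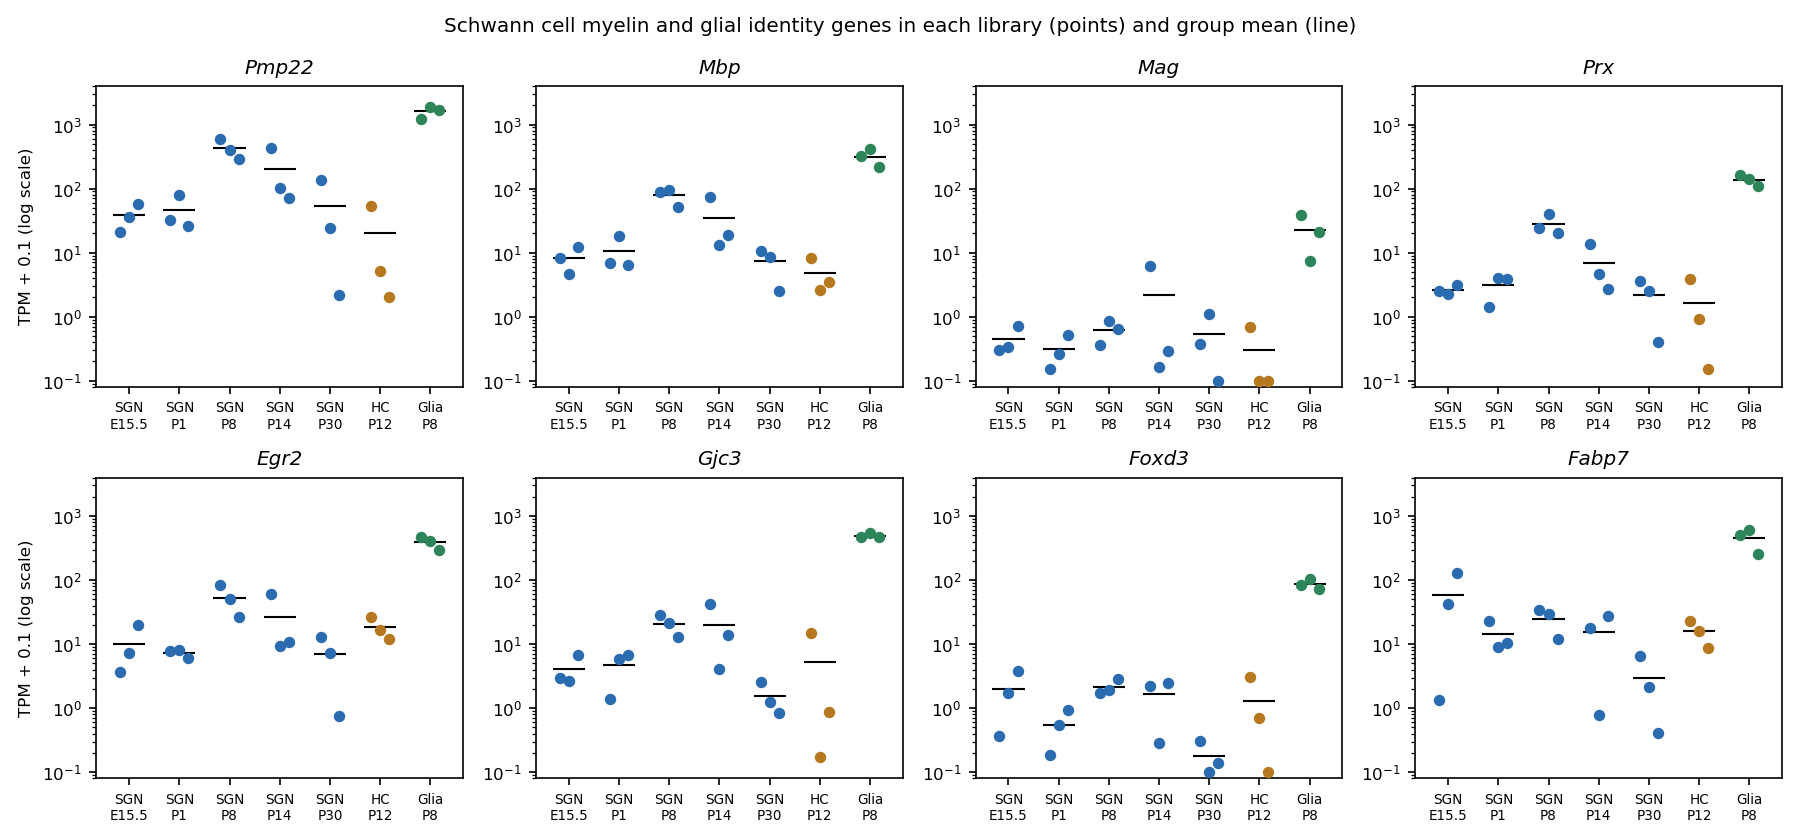
Level of each of the 8 genes in TPM + 0.1 (log axis) in the 21 libraries, with SGNs in blue, HCs in brown and glia in green. Points are libraries in the order of replicate 1 to 3 and lines are group means. All glial points lie above all SGN and HC points of the same gene.

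SGNs were compared with glia to measure how far apart the cell types stood for these genes. In all 15 SGN libraries each gene lay below all 3 glial libraries, as did 4.91% of the 17531 genes tested. All 8 passed the test (limma-voom, at least 4-fold with an adjusted p under 0.01), where 10.4% of genes were called lower in SGNs. The fit took genes with over 1 CPM in all replicates of at least 1 group. *Mag* met this in glia alone, so it entered through the group where it was high. Its calls as lower than glia, here, in P8 SGNs and in HCs, rest on that entry. The log2 difference between the mean of the 5 SGN ages and glia ran from -4.67 ± 0.24 (SE) for *Mbp* to -7.66 ± 0.47 for *Foxd3*, with limma adjusted p = 2.24e-12 and 3.88e-11. The median over the 8 genes was -5.62, against 0.22 for all genes tested. In these bulk libraries, fewer cells of a type and less RNA per cell cannot be told apart.

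At the matched age of P8 the genes fell into unequal distances from glia. The P8 SGN libraries held *Pmp22* at 595, 399 and 285 TPM, *Mbp* at 89.3, 96.1 and 50.7 TPM and *Prx* at 24.4, 39.8 and 20.2 TPM. These were 26.5% ± 9.75, 24.9% ± 7.76 and 20.6% ± 7.55 (SD, n = 3) of the glial means. *Egr2*, at 82.3, 49.9 and 26.5 TPM, was at 13.4% ± 7.10. The remaining genes were further down. *Fabp7*, at 33.7, 29.2 and 11.7 TPM, was at 5.50% ± 2.56 of glia, and *Gjc3*, at 28.4, 21.03 and 12.7 TPM, at 4.21% ± 1.59. *Foxd3*, at 1.63, 1.79 and 2.73 TPM, was at 2.36% ± 0.68. *Mag*, at 0.263, 0.746 and 0.541 TPM, was at 2.32% ± 1.09. In each of the 3 libraries *Pmp22*, *Mbp* and *Prx* stood at 14.8% or more of glia, whereas *Fabp7*, *Gjc3*, *Foxd3* and *Mag* stood at 7.45% or less.

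All 8 genes passed the test between P8 SGNs and P8 glia, where 7.53% of genes were called lower. The log2 difference was -2.22 ± 0.38 (SE) for *Pmp22*, the smallest, and -5.78 ± 0.71 for *Foxd3*, the largest, with limma adjusted p = 9.52e-05 and 2.55e-06. The *Pmp22* call was lost with edgeR (adjusted p = 0.118), with DESeq2 (adjusted p = 0.0543), with no low-count filter and without P8 SGN replicate 2. In the last 2 cases its log2 differences of -1.94 and -1.86 were under 4-fold. The *Prx* call was lost with edgeR (adjusted p = 0.0184).

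Other glial genes spread over a wider range. Of 44 tested genes in 5 further lists (myelin sheath, myelin lipid enzymes, lineage regulators, precursor or non-myelinating genes and satellite glia), 21 lay within the range of the 8 genes, 2.32% to 26.5% of the glial mean, 2 lay below it and 21 above. Of the myelin proteins within it, P8 SGNs held *Mal* at 14.1% ± 6.25 (SD, n = 3) of the glial mean, *Cnp* at 12.5% ± 4.89 and *Cldn19* at 9.27% ± 4.08. *Sox10*, the partner of EGR2, was at 7.75% ± 4.24, the ligand *Dhh* at 8.73% ± 4.38 and the neuregulin receptor *Erbb3* at 3.38% ± 0.854. *Kcnj10*, the potassium channel of satellite glia, was at 18.3% ± 10.1. The lowest was *Pou3f1* at 0.648% ± 0.595, and the myelin sheath genes *Drp2* and *Gldn* were at 97.7% ± 22.9 and 628% ± 460. Of the 44 genes, 24 were lower in P8 SGNs, 16 did not pass and 4 were higher, where 13.4% of all genes were called higher. The 4 were *Gldn*, *Ngfr*, *L1cam* and *S100b*. *S100b*, a calcium-binding protein often used to mark glia, was at 144, 225 and 136 TPM in P8 SGNs and at 25.3, 29.3 and 7.87 TPM in glia, a log2 difference of 2.76 ± 0.53 (limma adjusted p = 0.00032). *Ngfr*, the p75 receptor, was at 108, 203 and 91.8 TPM in P8 SGNs and at 16.6, 1.30 and 21.3 TPM in glia, a log2 difference of 3.58 ± 0.61 (limma adjusted p = 9.1e-05).

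**Figure D2:**
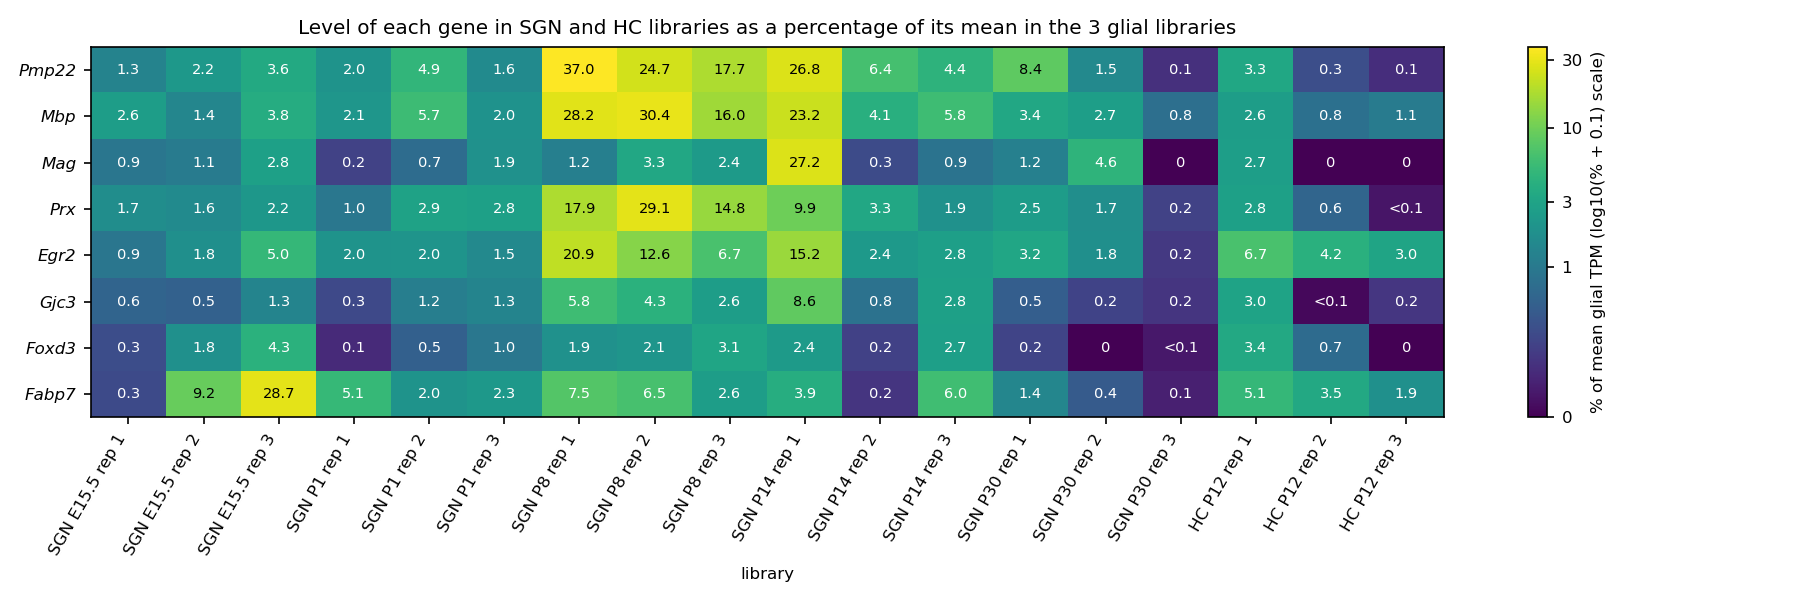
Level of each of the 8 genes in each SGN and HC library as a percentage of its mean TPM in the 3 glial libraries, printed in each cell, with color on a log10(% + 0.1) scale. P8 SGN libraries and P14 SGN replicate 1 hold the highest percentages, up to 37.0% for *Pmp22*, and *Fabp7* reaches 28.7% in E15.5 SGN replicate 3.

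HCs, which are not myelinated, were compared with glia as well. The HC libraries held *Pmp22* at 53.4, 5.05 and 1.92 TPM, *Gjc3* at 14.8, 0.0718 and 0.762 TPM and *Prx* at 3.77, 0.813 and 0.0541 TPM in replicates 1 to 3. Replicate 1 was the highest HC library for each of the 8 genes. *Egr2*, at 26.5, 16.5 and 11.99 TPM, and *Fabp7*, at 23.0, 15.8 and 8.45 TPM, differed less between the HC libraries. All 8 genes were lower in HCs than in glia, where 8.18% of genes were called lower. The log2 differences ran from -6.24 ± 0.66 (SE) for *Egr2* to -10.72 ± 1.17 for *Gjc3*, with limma adjusted p = 3.53e-07 and 5.1e-07.

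Between the mean of the SGN ages and HCs, 3 of the 8 were higher in SGNs, where 10.5% of genes were called higher. These were *Prx*, by 4.26 ± 1.09 (SE) on the log2 scale, *Gjc3*, by 3.87 ± 1.19, and *Mbp*, by 3.29 ± 0.87, with limma adjusted p = 0.00253, 0.00961 and 0.0031. For each of the 8 genes the 15 SGN libraries overlapped the 3 HC libraries, where 37.2% of genes did not. The *Gjc3* call was lost in 20 of 29 alternatives, with log2 differences of 1.45 in edgeR (adjusted p = 0.161) and 1.23 in DESeq2 (adjusted p = 0.207), and the *Mbp* call in 7 of 29. DESeq2 and quality weights also called *Pmp22* as higher in SGNs, by 3.28 (adjusted p = 0.00025) and 4.52 (limma adjusted p = 0.00271). Without HC replicate 2 or without HC replicate 3 the limma count was 0 of 8, and it was 1 when libraries were scaled by their totals alone. In the limma fit of all libraries 5 of the 8 had an unadjusted p under 0.05, as did 10201 of 17531 genes tested.

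The 5 SGN ages were compared to follow the genes over development. At E15.5, *Pmp22* was at 21.05, 36.2 and 57.6 TPM, *Mbp* at 8.10, 4.47 and 12.02 TPM and *Prx* at 2.37, 2.16 and 2.98 TPM. At P1, *Pmp22* was at 32.3, 78.3 and 25.6 TPM, *Mbp* at 6.77, 18.1 and 6.20 TPM and *Prx* at 1.30, 3.98 and 3.82 TPM. The libraries of the 2 ages overlapped for all 8 genes, where 26.7% of genes did not overlap. None of the 7 genes tested passed from E15.5 to P1 (limma-voom, at least 2-fold with an adjusted p under 0.05), where 8.26% of 15113 genes did. Of the 7, 1 gene, *Foxd3*, had an unadjusted limma p under 0.05, as did 4274 of the 15113 genes. edgeR and DESeq2 also called 0 of the 7. *Mag* stayed below the low-count filter of the SGN fit, which asked for over 1 CPM in all replicates of at least 1 age. *Foxd3* passed that filter through the P8 libraries alone, so its entry depended on the age where it was high.

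*Fabp7* was the exception at E15.5 in its spread. It was at 1.24, 41.7 and 130 TPM in replicates 1 to 3, the last being 28.7% of the glial mean and higher than *Pmp22* in that library. *Foxd3* followed the same order, at 0.267, 1.59 and 3.73 TPM. At P1, *Fabp7* was at 23.1, 8.95 and 10.2 TPM and *Foxd3* at 0.0869, 0.440 and 0.825 TPM. Without E15.5 replicate 1, which also had a blood list sum of 178 TPM against at most 33.9 TPM in the other libraries, both passed as lower at P1, with limma adjusted p = 0.00969 for *Fabp7* and 0.0441 for *Foxd3*.

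From P1 to P8 5 of the 7 genes tested rose, where 4.29% of genes were called higher. *Prx* rose by 3.84 ± 0.55 (SE) on the log2 scale, *Pmp22* by 3.78 ± 0.82 and *Mbp* by 3.50 ± 0.47, with limma adjusted p = 0.000298, 0.00654 and 0.000168. *Egr2*, at 7.79, 7.94 and 6.02 TPM at P1, rose by 3.15 ± 0.73 (limma adjusted p = 0.0102). *Gjc3*, at 1.31, 5.68 and 6.60 TPM at P1, rose by 3.01 ± 0.62 (limma adjusted p = 0.00511). For these 5 genes every P8 library lay above every P1 library, as it did for 3.47% of genes. *Foxd3* did not overlap either, with a log2 difference of 3.07 ± 1.12, but missed the threshold (limma adjusted p = 0.0907). *Fabp7* overlapped between the ages, with a difference of 1.17 ± 1.11 (limma adjusted p = 0.564). *Mag*, taken from a fit with no low-count filter, differed by 2.06 ± 1.46 (limma adjusted p = 0.557). With edgeR, *Pmp22* missed the threshold (adjusted p = 0.0588), and without P1 replicate 1 *Egr2* did (limma adjusted p = 0.0572).

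The upstream sequences of 4 of the 5 genes that rose, and of *Mag*, which had at most 0.746 TPM at both ages, are shown so that the genes that moved together can be compared. *Mbp*, the other gene that rose, was not searched for motifs. The sequences shown are RefSeq sequence on GRCm38.p6, written in the direction of transcription and ending at the base before the most upstream listed RefSeq start. The *Egr2* window is an exception, at 226 bases. It leaves out the last 24 bases before that start, which lie inside the annotated gene. Letters in capitals mark matches on either strand to the EGR core GCGTGGG or GCGGGGG or to the SOX core ACAAAG or ACAATG, and no 2 matches overlapped. The *Pmp22* window is chr11:63128732-63128981 (+), *Prx* chr7:27499074-27499323 (+), *Egr2* chr10:67535249-67535474 (+), *Gjc3* chr5:137963099-137963348 (-) and *Mag* chr7:30914923-30915172 (-).
Pmp22: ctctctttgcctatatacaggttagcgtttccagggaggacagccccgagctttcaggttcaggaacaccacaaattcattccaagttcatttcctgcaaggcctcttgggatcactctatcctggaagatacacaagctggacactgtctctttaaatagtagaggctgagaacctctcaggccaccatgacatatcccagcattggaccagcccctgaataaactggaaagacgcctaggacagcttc
Prx: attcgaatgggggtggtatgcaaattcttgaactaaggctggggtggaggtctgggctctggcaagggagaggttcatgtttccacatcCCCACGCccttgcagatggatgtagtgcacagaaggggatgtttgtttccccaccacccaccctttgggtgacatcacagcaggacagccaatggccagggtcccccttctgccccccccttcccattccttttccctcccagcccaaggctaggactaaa
Egr2: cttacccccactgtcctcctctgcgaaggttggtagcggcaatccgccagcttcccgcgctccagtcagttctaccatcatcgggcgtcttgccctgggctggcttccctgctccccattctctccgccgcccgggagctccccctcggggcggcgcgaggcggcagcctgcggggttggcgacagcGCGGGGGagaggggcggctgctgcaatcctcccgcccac
Gjc3: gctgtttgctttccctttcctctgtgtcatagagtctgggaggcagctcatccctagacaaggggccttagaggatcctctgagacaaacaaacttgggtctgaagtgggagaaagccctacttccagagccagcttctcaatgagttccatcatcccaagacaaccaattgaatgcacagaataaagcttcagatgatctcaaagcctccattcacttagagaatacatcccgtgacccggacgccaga
Mag: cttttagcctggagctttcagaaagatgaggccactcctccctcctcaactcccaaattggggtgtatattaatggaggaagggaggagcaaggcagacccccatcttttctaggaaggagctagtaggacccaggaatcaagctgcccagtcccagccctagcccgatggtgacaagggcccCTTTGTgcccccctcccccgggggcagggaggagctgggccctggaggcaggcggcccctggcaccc

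The *Prx* window held GCGTGGG on the minus strand at bases -161 to -155 from the RefSeq start, and the *Egr2* window held GCGGGGG on the plus strand at -63 to -57. The *Egr2* position counts the 24 bases that are not printed. The *Mag* window held ACAAAG on the minus strand at -67 to -62. The windows of *Pmp22*, *Gjc3* and *Fabp7* held none of the 4 motifs, and that of *Foxd3* held GCGTGGG at -18 to -12 on the minus strand. Of 32851 windows of 250 bases upstream of mouse gene starts, 4.30% held GCGTGGG, 9.63% GCGGGGG, 16.5% ACAAAG and 10.7% ACAATG. The windows searched for *Egr2* and *Fabp7* were shorter than these, at 226 and 208 bases. None of the 4 motifs was thus found in all of the printed windows of genes that rose, and a match describes letters only.

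**Figure D3:**
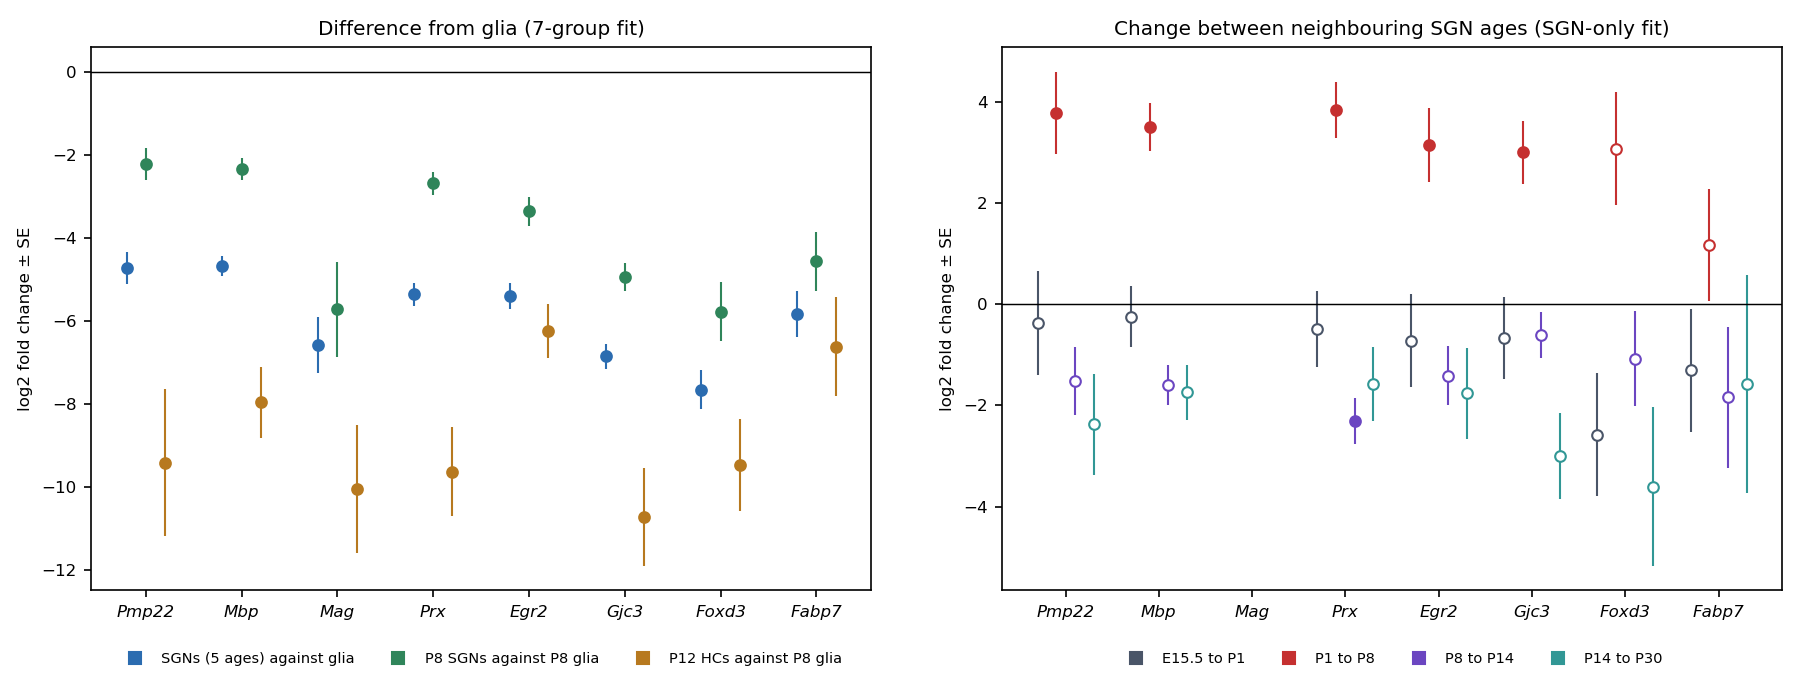
Log2 fold change ± SE from the limma-voom fits for each of the 8 genes, as the difference of SGNs and HCs from glia (left) and the change between neighbouring SGN ages (right). Filled points passed the test of their comparison, open points did not, and *Mag* has no point on the right because it was below the low-count filter. From P1 to P8 5 genes rose, and *Prx* fell from P8 to P14.

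Genes of wider glial lists also rose over the same step. From P1 to P8, 15 of 40 tested genes of the 5 further lists rose, 1 fell (*Ncam1*), where 3.15% of all genes were called lower, and 24 did not pass. Their median log2 change was 1.27, against -0.01 for all genes. Among myelin sheath genes 5 of 9 rose, including *Mal* by 3.89 ± 0.69 (SE) and *Cldn19* by 3.19 ± 0.64. *Ugt8a*, *Fa2h* and *Aspa*, of 6 genes for myelin lipids, rose by 3.00 ± 0.43, 3.42 ± 0.64 and 4.24 ± 0.99. *Sox10*, the gene of the PCR screen, rose by 3.07 ± 0.77, *Pou3f2* by 2.84 ± 0.65 and *Sox2* by 4.28 ± 1.06, the only 3 of 10 tested lineage regulators to pass. Of the precursor or non-myelinating genes only *Dhh* of 8 rose, and *Kcnj10*, *S100b* and *Slc1a3* were the 3 of 7 satellite glia genes that did. The limma adjusted p of the 15 genes lay between 8.6e-05 and 0.043. Fibroblast genes, 0 of 6 of which passed in the same step, summed to 145, 8.49 and 11.4 TPM at P1 and to 153, 33.8 and 10.6 TPM at P8. Neuronal genes moved as well, with 5 of 11 higher and 1 lower.

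**Figure D4:**
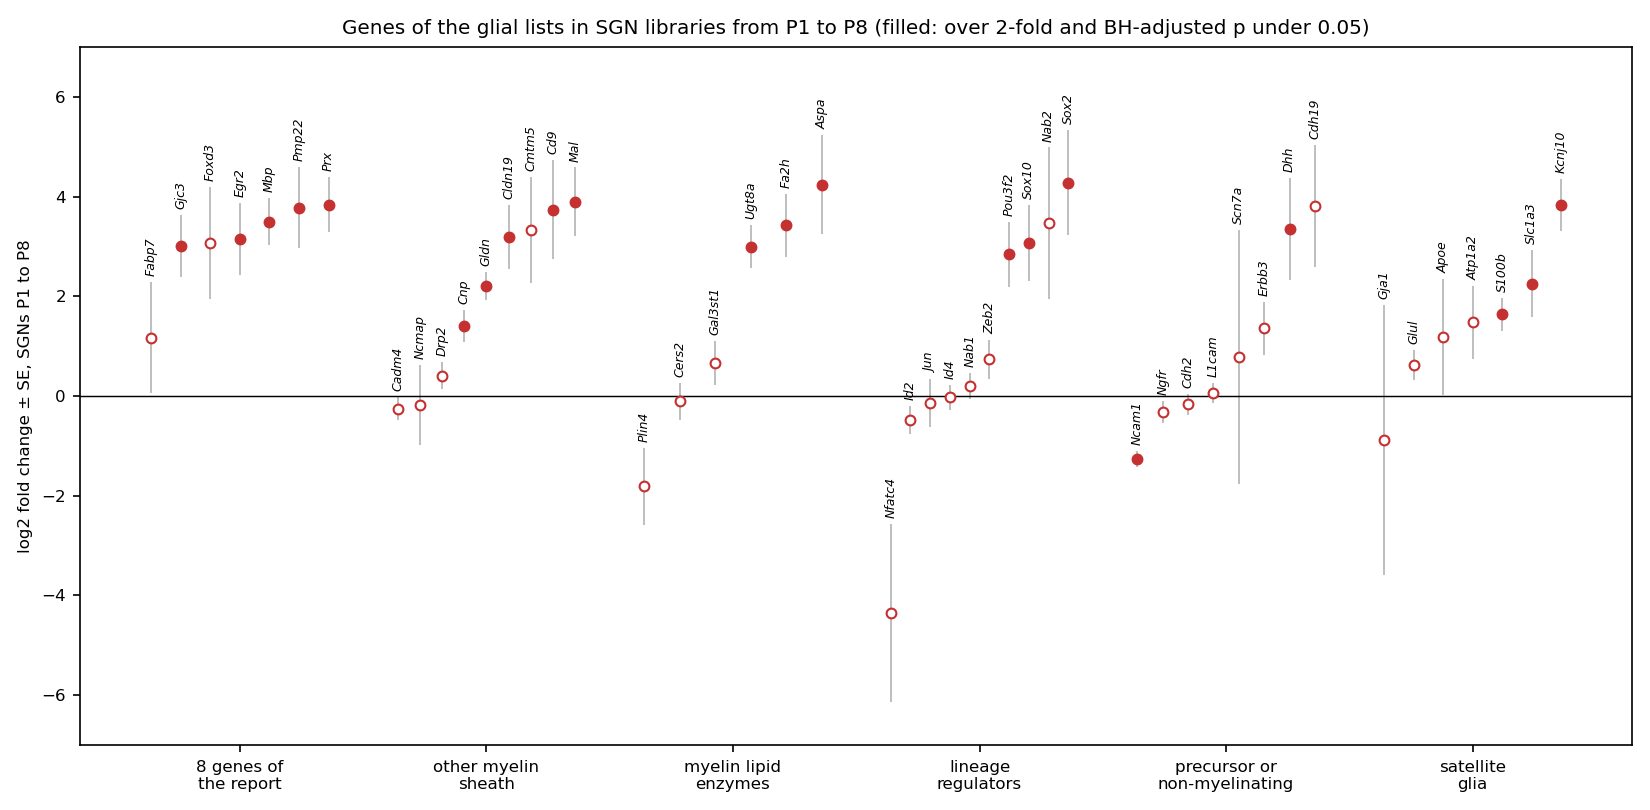
Log2 fold change ± SE from P1 to P8 in SGN libraries for the 8 genes (7 tested) and the tested genes of 5 further glial lists, sorted within each list. Filled points passed the limma-voom test. Genes of the myelin sheath and lipid lists that passed lie at 1.41 or above, and *Ncam1* fell.

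After P8 the levels of most of the 8 genes spread widely between replicates. At P14, *Pmp22* was at 432, 103 and 71.6 TPM, *Mbp* at 73.3, 12.9 and 18.5 TPM and *Prx* at 13.5, 4.57 and 2.57 TPM. *Egr2* was at 59.9, 9.31 and 10.8 TPM and *Gjc3* at 42.1, 4.04 and 13.5 TPM. Replicate 1 was the highest P14 library for each of these 5 genes. In the same library HC genes summed to 782 TPM, against 84.3 and 82.3 TPM in replicates 2 and 3, and fibroblast genes to 73.1 TPM, against 3.23 and 9.80 TPM. It was also the highest for *Mag*, at 6.06 TPM against 0.0631 and 0.191 TPM, which is 27.2% of the glial mean. *Olig1*, *Olig2*, *Mog* and *Cldn11*, genes of central myelinating cells, were at 5.83, 3.27, 2.94 and 10.7 TPM in that library, and the part of these other-cell transcripts in the levels of the 8 genes was not tested. In the other 14 SGN libraries the oligodendrocyte list summed to between 0.280 and 10.3 TPM and *Mag* was at most at 1.02 TPM.

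*Prx* was the only one of 7 genes to pass from P8 to P14, where 0.285% of genes were called lower. It fell by 2.31 ± 0.46 (SE) on the log2 scale (limma adjusted p = 0.0267), and each P14 library lay below each P8 library, as was so for 2.63% of genes. *Mbp* differed by -1.60 ± 0.40 (limma adjusted p = 0.0736). Without P14 replicate 1 both fell, as they did without 4 of the libraries that stood apart (all but that of E15.5), where *Mbp* differed by -2.15 (limma adjusted p = 0.0463) and *Prx* by -2.77 (limma adjusted p = 0.0456). Without all 5 neither passed (for *Prx*, limma adjusted p = 0.0551). The *Prx* call was lost with edgeR (adjusted p = 0.227), in a fit of the 2 ages alone (limma adjusted p = 0.0605) and when any P8 library, P14 replicate 2 or P14 replicate 3 was left out.

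At P30, *Pmp22* was at 135, 24.5 and 2.06 TPM, *Mbp* at 10.6, 8.44 and 2.44 TPM and *Egr2* at 12.7, 7.15 and 0.657 TPM. *Prx* was at 3.48, 2.39 and 0.306 TPM, *Gjc3* at 2.41, 1.14 and 0.741 TPM and *Fabp7* at 6.30, 2.02 and 0.304 TPM. *Foxd3* rested on 12, 0 and 2 counts and *Mag* on 28, 46 and 0. Replicate 3 was thus the lowest P30 library for 7 of the 8 genes, and replicate 1 the highest for all but *Mag*. Replicate 1 also had the highest sums of HC genes, at 360.01 TPM against 120 and 85.4 TPM, of fibroblast genes, at 22.1 TPM against 1.06 and 0.385 TPM, and of blood genes, at 17.995 TPM against 0.222 and 2.27 TPM. The part of these transcripts in the P30 levels was not tested. From P14 to P30 none of the 7 genes passed with limma, where 0.0596% of genes did. Of the 7, 5 had an unadjusted limma p under 0.05, as did 990 of 15113 genes tested. The log2 differences of the 7 lay between -1.58 and -3.60. DESeq2 called 1 gene, *Gjc3*, whose limma estimate was -3.00 ± 0.85 (adjusted p = 0.315), and edgeR called 0. *Gjc3* and *Mbp* did not overlap between P14 and P30, whereas the other 6 genes did, and 2.45% of all genes were lower at P30 without overlap.

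Over the whole span from E15.5 to P30, 1 gene of 7, *Foxd3*, passed, lower at P30 by a log2 difference of -4.20 ± 1.53 (SE) with a limma adjusted p of 0.0372, where 16.2% of genes were called lower. That call was lost without E15.5 replicate 2 or 3 and without P30 replicate 2 or 3, and edgeR and DESeq2 also called *Fabp7* as lower (adjusted p = 0.018 and 0.00262). *Pmp22*, *Mbp*, *Prx* and *Egr2* differed by -0.09 to -0.75 with limma adjusted p from 0.566 to 0.917 and standard errors from 0.62 to 1.12. In the test of any difference among the 5 ages 5 of 7 passed, where 34.1% of genes did. They were the same 5 that rose from P1 to P8, with limma adjusted p from 0.000126 for *Mbp* to 0.0123 for *Egr2*. *Pmp22* missed the threshold with no low-count filter (limma adjusted p = 0.0514) and *Egr2* with quality weights (limma adjusted p = 0.0513). *Foxd3* passed as well with edgeR (adjusted p = 0.0395) and DESeq2 (adjusted p = 0.00741), and *Fabp7* with DESeq2 (adjusted p = 0.0409).

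The 8 genes did not vary as 1 unit over the 15 SGN libraries. As a description of log2(TPM + 1), in which all genes share the libraries and their depth, Pearson's r ranged from 0.21 to 0.95 over the 28 pairs, with a median of 0.59. *Pmp22* and *Egr2* (r = 0.95) and *Mbp* and *Prx* (r = 0.94) were closest. Among *Pmp22*, *Mbp*, *Prx*, *Egr2* and *Gjc3*, r lay between 0.83 and 0.95. *Foxd3* and *Fabp7* were closer to each other (r = 0.79) than *Fabp7* was to *Prx* (r = 0.36) or to *Mag* (r = 0.21). *Mag* and *Foxd3* were at most at 6.06 and 3.73 TPM in SGN libraries and rested on few counts, so values of r with them are uncertain.

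The genes whose log2(TPM + 1) was most like that of 7 of the 8 over the 21 libraries are given as a description. *Ndrg1* was closest to both *Mbp* (r = 0.98) and *Prx* (r = 0.98). *Arhgap19* was closest to *Egr2* (r = 0.97), *P2rx7* to *Gjc3* (r = 0.97), *Abca8a* to *Foxd3* (r = 0.97), *Cldn1* to *Mag* (r = 0.96) and *Wwtr1* to *Fabp7* (r = 0.91). These genes averaged between 8.75 TPM for *Cldn1* and 161 TPM for *Arhgap19* in glia, and between 0.55 and 9.48 TPM over the SGN libraries. The likeness is over libraries of 3 cell types, and all genes share those libraries.

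On GRCm38 with GENCODE M21 annotation, *Pmp22* lies on chromosome 11 from 63128982 to 63159547, *Egr2* on chromosome 10 from 67535475 to 67542188 and *Fabp7* on chromosome 10 from 57784881 to 57788450. *Gjc3* (chromosome 5, 137953461 to 137963098) and *Mag* (chromosome 7, 30899176 to 30914873) lie on the minus strand. *Prx* (chromosome 7, 27499324 to 27520214) overlaps the antisense gene *Gm15541*, *Foxd3* (chromosome 4, 99656299 to 99658622) overlaps the miRNA gene *Gm23366* on the same strand, and *Mbp* on chromosome 18 overlaps the pseudogene *Rpl21-ps8*. Whether the counting used strand is not given in the sources used here, so the counts of these 3 genes are uncertain to that extent.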

How the data were processed

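Bulk RNA-seq was analysed from 21 libraries of SGNs, HCs and glia (3 in each of 7 groups), made by the study with amplification from oligo-dT and random primers. The authors deposited raw read counts per gene with each gene's length. Their methods and processing notes name STAR 2.4.0i, mm10, featureCounts, GENCODE vM15 and CASAVA. The 8 genes, and the lists of other genes, were chosen with earlier results of these data known. The genes named in the text are the 8 genes, the genes of those lists that passed or were high, and the most alike gene of 7 of the 8. Some genes of the myelin sheath list are not reported here and were left out of its counts and medians.

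TPM were computed from counts and deposited lengths. The tests were limma-voom 3.58.1 with TMM factors from edgeR 4.0.16 in R 4.3.3 and Benjamini-Hochberg adjustment over all genes tested. Cell types were compared over all 21 libraries (17531 genes, called at 4-fold and adjusted p under 0.01) and ages over the 15 SGN libraries (15113 genes, 2-fold and 0.05). Genes needed over 1 CPM in all replicates of at least 1 group, and 7 of the 8 passed that in the SGN fit. The alternatives were edgeR, DESeq2 1.42.0, other scaling, filters and weights, a replicate block, only the groups compared, and libraries left out. The scripts were tested on simulated data.

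Replicates differed beyond sampling noise, and none was merged. Among counts of 1 to 20, a median of 67.9% were even, so reads are not independent molecules and floors cover counting error only. The total per library (10368240 to 37287489) sets the precision. Promoter windows are from RefSeq, GRCm38.p6.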

Additional observations from a re-analysis of the deposited data

How the results depend on the processing

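Each single-gene result was counted once for each alternative, and many alternatives share most libraries, so these are not separate results. Counted so, 1402 kept their direction and side of the threshold, 53 lost the call, 27 gained it and 18 changed sign. All 18 were in values that had not passed. The counts of SGNs against glia (8), HCs against glia (8), P8 SGNs against P8 glia (8), P1 to P8 (5) and any age (5) stayed within 1.5 times their value under every alternative run. Leaving out single libraries gave 8 to 8, 8 to 8, 7 to 8, 4 to 5 and 5 to 7 of them.

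SGNs against HCs (3) gave 1 with library size only, 1 with no low-count filter and 0 to 3 when single libraries were left out. E15.5 to P1 (0) gave 1 without the 5 libraries that stood apart and 0 to 2. P8 to P14 (1) gave 0 with edgeR, 2 with a filter of over 10 CPM, 0 with only the 2 ages, 2 without 4 of those libraries (E15.5 replicate 1 kept), 0 without the 5 and 0 to 2 when single libraries were left out. P14 to P30 (0) gave 1 with DESeq2, 1 with quality weights and 0 to 0. E15.5 against P30 (1) gave 2 with edgeR, 2 with DESeq2, 0 with over 10 CPM, 2 with quality weights, 2 without the 5 libraries, 0 with only the 2 ages and 0 to 2. The filter of over 10 CPM removed *Foxd3*, and the other causes were not tested. Leaving out the 4 or 5 libraries was chosen after seeing the data. HC replicate 1 was among them because of its levels of the genes under study, not because of a list of other genes. Leaving it out lowers the HC means of those genes, so these runs are no check on the count of HCs against glia.

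The sign changed as follows, in log2. For SGNs against HCs, *Foxd3* ranged from -0.018 (without HC replicate 3) to 3.266 over single libraries left out. From E15.5 to P1, *Mbp* was at 0.061 with edgeR, 0.011 with DESeq2 and 0.007 with quality weights, and without the 4 libraries *Prx* was at 0.084 and *Gjc3* at 0.163. Over single libraries left out, *Pmp22* ranged from -0.932 to 0.080, *Mbp* from -0.818 to 0.158, *Prx* from -0.891 to 0.083 and *Gjc3* from -1.125 to 0.162, lowest without P1 replicate 2. From E15.5 to P30, *Pmp22* was at 0.599 with edgeR and 0.558 with DESeq2. Over single libraries left out, *Pmp22* ranged from -2.237 to 0.767, *Mbp* from -0.601 to 0.318, *Prx* from -1.409 to 0.240 and *Egr2* from -1.841 to 0.215, lowest without P30 replicate 1 and highest without P30 replicate 3. *Mbp* was at 0.045 without E15.5 replicate 3.

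Samples with the same replicate number deviated together with r over 0.1 for all 3 numbers in none of the group pairs checked. By that rule the numbers were not taken to pair the samples. Between neighbouring postnatal SGN ages, however, every r was positive. For P1 and P8 r was 0.357, 0.0619 and 0.161, and for P8 and P14 it was 0.31, 0.128 and 0.0152. For P14 and P30 it was 0.371, 0.22 and 0.0818. For E15.5 and P1 it was -0.0556, -0.0592 and 0.0535. Whether libraries of replicate 1 shared a batch was not tested. With a replicate block the count from P8 to P14 was 2 and *Pmp22* from E15.5 to P30 was at 0.174. With library size only, the median of all genes moved from 0.02 to -0.53 for SGNs against HCs, and genes called higher and lower went from 1847 and 2847 to 1335 and 3779. From P1 to P8 they went from 648 and 476 to 425 and 756. Over all genes, the 1124 called from P1 to P8 were 649 with edgeR, the 81 from P8 to P14 were 34 with edgeR and 219 with DESeq2, and the 9 from P14 to P30 were 97 with DESeq2. Depth limits *Mag* and *Foxd3* most, which had 0 to 46 counts in P30 SGN libraries.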

Other observations

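*Gldn* and *Ugt8a*, from the glial lists, were not lower in P8 SGNs than in glia by the test. *Gldn*, whose product gliomedin helps to assemble nodes of Ranvier, was at 46.3, 128 and 34.6 TPM in P8 SGNs and at 10.2, 12.6 and 10.5 TPM in glia, a log2 difference of 2.11 ± 0.32 (SE, limma adjusted p = 2.47e-05). It rose from E15.5 to P1 by 2.70 ± 0.58 (limma adjusted p = 0.00818), rose again to P8 by 2.21 ± 0.27 (limma adjusted p = 8.63e-05) and fell from P14 to P30 by 1.83 ± 0.29 (limma adjusted p = 0.017). *Ugt8a*, an enzyme of galactolipid synthesis, was at 34.1, 33.5 and 35.2 TPM in glia, at 21.1, 44.6 and 18.3 TPM in P8 SGNs and at 27.8, 69.9 and 27.1 TPM in P30 SGNs. The P30 SGN libraries thus overlapped glia for this myelin lipid gene, whereas *Pmp22* was at most at 135 TPM in the same P30 libraries and at 1243 TPM or more in glia.

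*Slc17a8*, the vGlut3 gene that names the Cre driver of the glial mice and a marker of inner HCs, was at 28.3, 16.2 and 48.0 TPM in glial libraries, at 380, 377 and 377 TPM in HC libraries and at 0.960, 1.05 and 0.650 TPM in P8 SGN libraries. The difference between P8 SGNs and glia was -5.31 ± 1.15 (limma adjusted p = 0.000895).

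In E15.5 SGN libraries *Mog* was at 5.77, 0.775 and 1.28 TPM and in glial libraries at 0. The 8 HC genes summed to 399, 87.7 and 120 TPM in glia and to 443, 413 and 231 TPM in P8 SGNs, and the part of these transcripts in any result was not tested.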
